A study of Mus musculus with 8 samples.

Results

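Of the 171865 nuclear peaks of 5-hydroxymethylcytosine (5hmC) in mouse embryonic stem cells (ESCs), 23923 (13.9%, 95% interval 13.8 to 14.1%) overlapped a peak of mouse embryonic fibroblasts (MEFs) by at least 1 bp and did not overlap any peak of adult brain or liver. These ESC-MEF peaks were chosen by the overlap of the peak lists of these 4 cell types, so their presence or absence in those lists is a description and not a result. 5hmC was mapped by GLIB-Seq, in which the modified base is glucosylated, oxidized and tagged with biotin so that DNA fragments carrying it can be captured and sequenced, to compare 5hmC in pluripotent cells with 5hmC in differentiated cells. The ESCs were the E14 line, the MEFs were primary fibroblasts of C57BL/6 embryos at embryonic day 11 by the labels (the study's methods give a later day), and the brain and liver came from C57BL/6 mice 8 weeks old. A further pair of libraries came from E14 cells transfected with a short hairpin against GFP (shGFP) or against Suz12 (shSuz12), a subunit of Polycomb repressive complex 2, and kept under puromycin selection. Every condition had 1 library. The ESC libraries represent a single cell line, the MEFs primary cells in culture, the brain and liver whole organs with several cell types, and the hairpin construct behind the shSuz12 library is not named. Peak lists give no expression, and RNA-Seq of the hairpin-transfected cells was not analysed here, so the identity of the cells was not checked with marker genes.

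The Tet dioxygenases convert 5-methylcytosine to 5hmC, mostly where a cytosine is followed by a guanine (CpG). 5hmC is both a step on the way to unmethylated DNA and a mark that can persist, and in many tissues it lies along gene bodies and at distal regulatory elements. ESCs express Tet1 at a high level, whereas fibroblasts are mesenchymal cells that build and remodel the extracellular matrix.

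The sequences below are the central 300 bp of 7 ESC peaks, on the plus strand of mm9 (the NCBIM37 reference), with every CpG in capitals. The bases are those of the reference at the center of each ESC peak, which a MEF peak that overlaps it need not cover. The first 4 are the ESC-MEF peaks with the highest ESC score in the 4 genes that held the most of them. They lie in introns of Gm20388 (chr8:124067474-124067773), Wwox (chr8:117674403-117674702), Odz3 (chr8:49428113-49428412) and Dnahc8 (chr17:31011478-31011777). The fifth, from another part of the Gm20388 span and also in an intron (chr8:122781425-122781724), is shown for contrast. Among the peaks of that gene shared by all 4 cell types it had the highest score, 3233, which was also the highest of any ESC peak. The last pair was chosen after the values were seen, from a coding exon of Bcl11a (chr11:24063931-24064230) and an intron of Cdh3 (chr8:109051767-109052066), genes in which most ESC peaks were ESC-MEF peaks.
Gm20388 ESC-MEF peak: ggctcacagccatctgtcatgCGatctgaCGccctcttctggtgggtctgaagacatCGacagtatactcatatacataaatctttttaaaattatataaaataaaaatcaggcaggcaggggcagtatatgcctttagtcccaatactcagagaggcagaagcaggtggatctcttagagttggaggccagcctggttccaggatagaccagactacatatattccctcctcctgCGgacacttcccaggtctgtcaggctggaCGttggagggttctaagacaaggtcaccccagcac
Wwox ESC-MEF peak: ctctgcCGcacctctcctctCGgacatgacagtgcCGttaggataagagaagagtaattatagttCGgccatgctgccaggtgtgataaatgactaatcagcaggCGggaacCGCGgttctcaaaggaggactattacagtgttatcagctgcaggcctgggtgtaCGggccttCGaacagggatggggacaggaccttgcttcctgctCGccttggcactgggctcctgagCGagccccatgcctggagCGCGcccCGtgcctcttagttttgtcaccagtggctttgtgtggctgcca
Odz3 ESC-MEF peak: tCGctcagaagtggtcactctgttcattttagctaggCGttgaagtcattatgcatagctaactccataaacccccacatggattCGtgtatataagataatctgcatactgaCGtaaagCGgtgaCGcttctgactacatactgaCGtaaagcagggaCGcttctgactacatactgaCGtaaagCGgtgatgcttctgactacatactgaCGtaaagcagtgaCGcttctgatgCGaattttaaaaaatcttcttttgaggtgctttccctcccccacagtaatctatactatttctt
Dnahc8 ESC-MEF peak: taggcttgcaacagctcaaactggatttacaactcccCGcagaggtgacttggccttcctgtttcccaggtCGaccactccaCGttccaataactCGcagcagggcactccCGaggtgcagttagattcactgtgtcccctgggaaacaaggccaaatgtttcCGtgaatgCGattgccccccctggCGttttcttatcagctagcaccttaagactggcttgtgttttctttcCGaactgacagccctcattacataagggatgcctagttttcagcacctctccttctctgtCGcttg
Gm20388 peak of all 4 cell types: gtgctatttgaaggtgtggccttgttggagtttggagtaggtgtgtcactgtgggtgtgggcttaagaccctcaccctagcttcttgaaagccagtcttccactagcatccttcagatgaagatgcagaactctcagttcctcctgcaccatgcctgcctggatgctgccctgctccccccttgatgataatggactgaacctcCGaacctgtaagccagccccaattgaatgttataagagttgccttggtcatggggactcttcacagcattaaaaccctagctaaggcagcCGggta
Bcl11a ESC-MEF peak: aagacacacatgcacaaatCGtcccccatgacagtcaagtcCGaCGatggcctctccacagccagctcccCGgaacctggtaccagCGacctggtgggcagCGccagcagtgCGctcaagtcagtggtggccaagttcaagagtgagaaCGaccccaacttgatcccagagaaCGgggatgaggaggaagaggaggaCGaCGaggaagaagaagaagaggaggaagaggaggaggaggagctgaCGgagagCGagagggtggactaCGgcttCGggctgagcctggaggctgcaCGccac
Cdh3 ESC-MEF peak: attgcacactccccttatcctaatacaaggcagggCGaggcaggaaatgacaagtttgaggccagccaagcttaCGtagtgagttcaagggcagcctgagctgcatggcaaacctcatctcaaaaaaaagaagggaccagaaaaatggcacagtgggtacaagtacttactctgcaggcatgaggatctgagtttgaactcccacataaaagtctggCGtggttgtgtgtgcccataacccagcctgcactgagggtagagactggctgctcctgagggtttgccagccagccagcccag

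The windows differed widely in CpG content. The Bcl11a window held 16 CpGs, the Wwox window 14, the Odz3 window 13 and the Dnahc8 window 10. The Gm20388 and Cdh3 windows held 5 and 3, and the Gm20388 window of all 4 cell types held 2. The Wwox peak was covered by its MEF peak over all of its 1482 bp, whereas in the 6268 bp peak of Cdh3 the MEF overlap measured 1689 bp. The nearest brain peak to the Odz3 peak was 0.042 kb away, and that to the Cdh3 peak 17.1 kb away, so the absence of a brain peak covers very different surroundings.

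The ESC-MEF peaks were about as wide as the average ESC peak. Their median width was 824 bp, with quartiles of 690 and 1099 bp and a range of 326 to 6268 bp, and together they covered 22.9 Mb. Among the 8 classes into which ESC peaks fall by their overlap with MEF, brain and liver peaks, the 45085 peaks of ESCs alone had a median of 750 bp, the 15535 of ESCs and brain 832 bp, and the 25238 of all 4 cell types 1162 bp, against 844 bp over all ESC peaks. Peaks wider than 2 kb made up 3.18% of the ESC-MEF peaks (760 peaks), 6.29% of all ESC peaks and 18.3% of the peaks of all 4 cell types. The score of a peak, taken as 10 times the negative log10 of the p-value that MACS gave it, had a median of 169 in the ESC-MEF peaks, 136 in ESCs alone, 178 in all ESC peaks and 311 in all 4 cell types. With 1 library per condition there is no spread between replicates, so differences between classes were not tested, and the intervals given (exact Clopper-Pearson, 95%) cover counting error only.

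**Figure D1:**
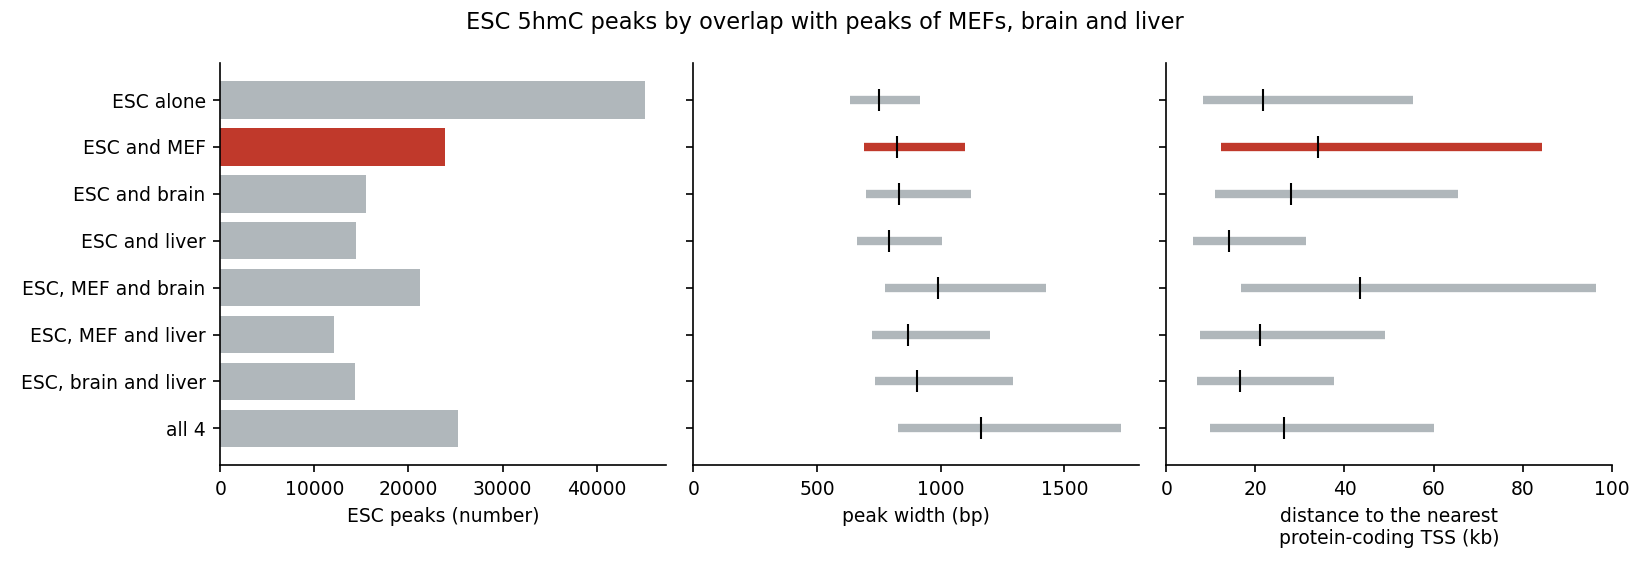
ESC 5hmC peaks in 8 classes by overlap with MEF, brain and liver peaks: number of peaks (left), peak width in bp (middle) and distance from the peak midpoint to the nearest protein-coding TSS in kb (right); bars in the last 2 panels span the quartiles and black ticks mark the median. The ESC-MEF peaks (red) number 23923, have a median width of 824 bp and lie at a median of 34.1 kb from a TSS.

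The rule rests on lists whose lowest scores differ. The lowest score was 80 in the ESC and liver lists and 30 in the MEF and brain lists, so an ESC-MEF peak may match a weak MEF peak, and the absence of a liver peak was judged against a shorter list than that of a brain peak. The ESC-MEF peaks matched 23321 different MEF peaks, and 1192 of them shared a MEF peak with another. The overlap had a median of 658 bp, or 83.8% of the ESC peak, and the MEF peaks had a median score of 66.1. Of the ESC-MEF peaks, 40.6% (40.0 to 41.2%) had a score of at least 80 in the MEF peak that they overlapped most, as did 58.4% (57.8 to 59.0%) of the peaks of all 4 cell types, while 34.1% of the whole MEF list had such a score. When any overlapping MEF peak with that score was enough, 9879 ESC-MEF peaks were left, and with peaks below that score taken out of every list there were 17081.

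At the edges of the rule, peaks on both sides resembled each other. The 678 ESC-MEF peaks with under 100 bp of MEF overlap had a median width of 757.5 bp and a median score of 136, and the 1071 peaks of ESCs alone with a MEF peak within 100 bp had 740 bp and 138. On the side of brain and liver, 1172 ESC-MEF peaks had a brain or liver peak within 100 bp, with a median width of 822 bp, and 41.6% of them lay outside genes. The 999 peaks just outside the rule, which touched a brain or liver peak by under 100 bp, had a median width of 802 bp, and 39.0% of them lay outside genes. The gap from an ESC-MEF peak to the nearest brain or liver peak had a median of 1.90 kb (quartiles 0.623 and 5.04 kb). In 8262 of them (34.5%) it was under 1 kb, and in 131 it was over 100 kb.

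ESC-MEF peaks lay outside protein-coding genes in a larger share than ESC peaks as a whole. By midpoint, 12589 (52.6%, 52.0 to 53.3%) were outside genes and promoters, 9133 (38.2%, 37.6 to 38.8%) in introns, 1450 (6.06%, 5.76 to 6.37%) in exons and 751 (3.14%, 2.92 to 3.37%) within 1 kb of a transcription start site (TSS). Over all ESC peaks, 36.5% were outside genes, 48.8% in introns, 11.8% in exons and 2.98% at promoters. The share outside genes was 47.6% in ESCs alone, 30.4% in ESCs and brain and 21.2% in all 4 cell types, and the exon share of the ESC-MEF peaks was the lowest of the 8 classes. The share outside genes of the ESC-MEF peaks was 57.7% among the 15661 without a brain or liver peak within 1 kb, and 49.8% when peaks with a score under 80 were taken out of every list. With all annotated genes in place of protein-coding genes it was 49.1%, against 33.7% over all ESC peaks, so whether more than 50% of the ESC-MEF peaks lay outside genes depended on these choices.

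**Figure D2:**
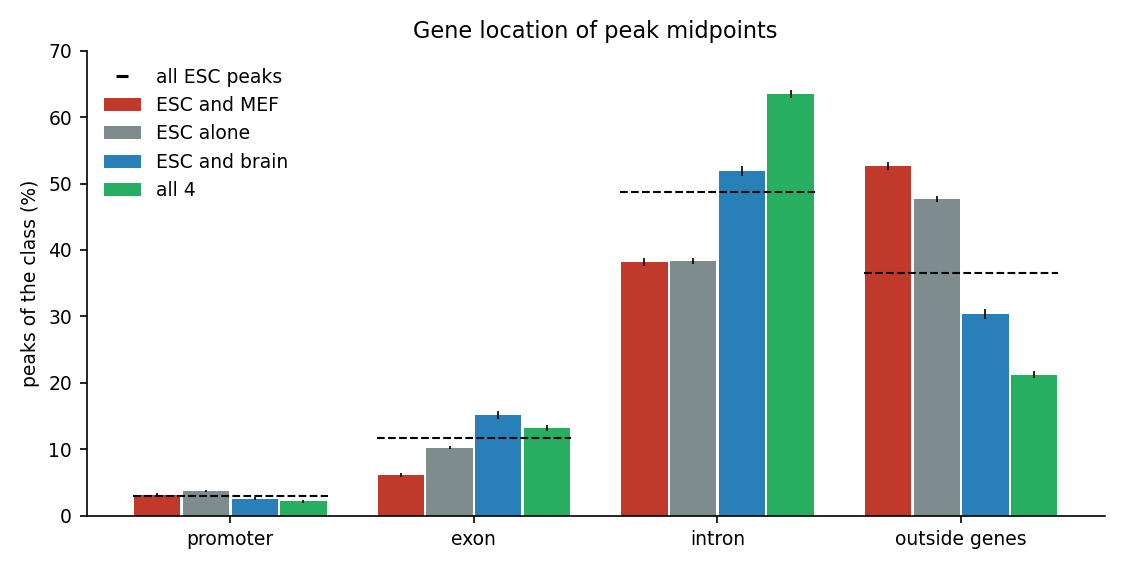
Share of ESC peak midpoints (percent of each class, with exact 95% intervals that cover counting error) at promoters, in exons, in introns and outside protein-coding genes, with dashed lines for all 171865 ESC peaks. The ESC-MEF peaks (red) reach 52.6% outside genes and 6.06% in exons.

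Relative to the length of each segment, ESC-MEF peaks were denser at promoters than along gene bodies. There were 17.8 ESC-MEF peaks per Mb of promoter and 10.9 per Mb of gene body, a ratio of 1.63 (1.52 to 1.75). The same ratio was 1.13 over all ESC peaks, 1.75 in ESCs alone, 0.881 in ESCs and brain and 0.642 in all 4 cell types. It was 1.20 with a minimum score of 80 for every list, and was 2.40 when a peak was assigned by 1 bp of overlap. That assignment gave 1.79 over all ESC peaks, 2.41 in ESCs alone and 1.44 in all 4 cell types, where the ratio turned from below to above 1. Within genes, the density was 21.5 per Mb of exon and 10.2 per Mb of intron, a ratio of 2.11 (2.01 to 2.21), against 3.02 over all ESC peaks and 2.56 in all 4 cell types. The other classes with a MEF peak were close, with 2.22 in ESCs, MEFs and brain and 2.23 in ESCs, MEFs and liver. Classes without a MEF peak ran from 3.43 in ESCs alone to 4.43 in ESCs, brain and liver, so a low ratio was not particular to the ESC-MEF peaks. Assignment by 1 bp of overlap moved the exon ratio to 4.09 in the ESC-MEF peaks and to 5.24 over all ESC peaks.

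The ESC-MEF peaks were also far from start sites. The median distance from midpoint to the nearest protein-coding TSS was 34.1 kb, compared with 24.7 kb over all ESC peaks, 21.7 kb in ESCs alone, 28.0 kb in ESCs and brain and 26.5 kb in all 4 cell types, and it was longer still, 43.5 kb, in the class of ESCs, MEFs and brain. Of the ESC-MEF peaks, 5035 (21.0%, 20.5 to 21.6%) lay more than 100 kb from a TSS, against 14.3% of all ESC peaks. They were found on every chromosome. On the autosomes they made up 12.0 to 15.8% of the ESC peaks, from chromosome 19 to chromosome 13, and chromosome 8 held the most, with 2102 (16.0 per Mb). Chromosome 8 also held the most ESC peaks, 15212, of which the ESC-MEF peaks were 13.8%. The X chromosome held 32 of its 328 ESC peaks and the Y chromosome 2 of 17.

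In base composition the ESC-MEF peaks resembled other ESC peaks. Their median GC content was 48.5%, against 48.9% over all ESC peaks and 41.8% in the genome. They had a median of 1.74 CpGs per 100 bp, against 1.58 in ESCs alone, 1.71 over all ESC peaks and 1.82 in all 4 cell types, and the genome had 0.834. Those at promoters had 2.07 CpGs per 100 bp and those in exons 2.04, and introns and the space outside genes had 1.68 and 1.74.

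The shGFP and shSuz12 libraries took no part in choosing the peaks and give a separate look at them in the same cell line. Of the ESC-MEF peaks, 13921 (58.2%, 57.6 to 58.8%) overlapped an shGFP peak, against 56.4% of all ESC peaks, 46.5% in ESCs alone, 49.6% in ESCs and brain and 71.4% in all 4 cell types. In ESCs, MEFs and brain it was 63.7%, and in ESCs, MEFs and liver 62.9%, both above the share of the ESC-MEF peaks. An shSuz12 peak was present at 46.0%, both at 33.3% and neither at 29.0% of them, close to the 47.1, 33.8 and 30.4% of all ESC peaks. At promoters, 69.2% (65.8 to 72.5%) were found in shGFP, compared with 55.7% (54.7 to 56.7%) in introns and 59.3% (58.4 to 60.1%) outside genes. Promoters were also above introns in ESCs alone (61.3 and 43.2%), in ESCs and brain (64.4 and 47.5%) and in all 4 cell types (79.1 and 69.6%), and the median score of ESC-MEF peaks was 198 at promoters and 165 in introns.

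ESC-MEF peaks with higher scores were found again more often. With all ESC peaks divided into 4 equal bins by score, from lowest to highest, 33.6, 48.4, 68.6 and 89.6% of the ESC-MEF peaks were found in shGFP. In the same bins the share was 28.4, 42.4, 61.7 and 86.6% in ESCs alone and thus lower in each bin, a difference that was not tested. For the peaks of all 4 cell types it was 31.9, 44.5, 66.8 and 91.9%, below the ESC-MEF peaks in the 3 lower bins and above them in the highest. The share of ESC-MEF peaks outside genes stayed between 51.5 and 53.5% in every bin.

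Of the 13921 ESC-MEF peaks found in shGFP, 5964 (42.8%, 42.0 to 43.7%) had no shSuz12 peak, against 40.0% of all ESC peaks, 50.7% in ESCs alone and 27.5% in all 4 cell types. This share fell with the score, from 63.9% through 57.9 and 44.1 to 20.6% in the highest bin. It differed little by location, from 39.5% (36.2 to 42.9%) in exons and 40.8% (36.5 to 45.1%) at promoters to 43.2% in introns and 43.1% outside genes. When an ESC peak counted as found only if at least 50% of it was covered, the share was 61.6%. That share was counted for the ESC-MEF peaks alone, so it cannot be set beside the other classes. Non-overlap also ran the other way. Of the 23923 ESC-MEF peaks, 3057 (12.8%) had an shSuz12 peak and no shGFP peak, against 13.3% of all ESC peaks. The lists differ in other ways, with a median width of 776 bp in shGFP and 564 bp in shSuz12 and a lowest score of 50.02 and 30.34, and the part of these differences in the result was not tested.

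**Figure D3:**
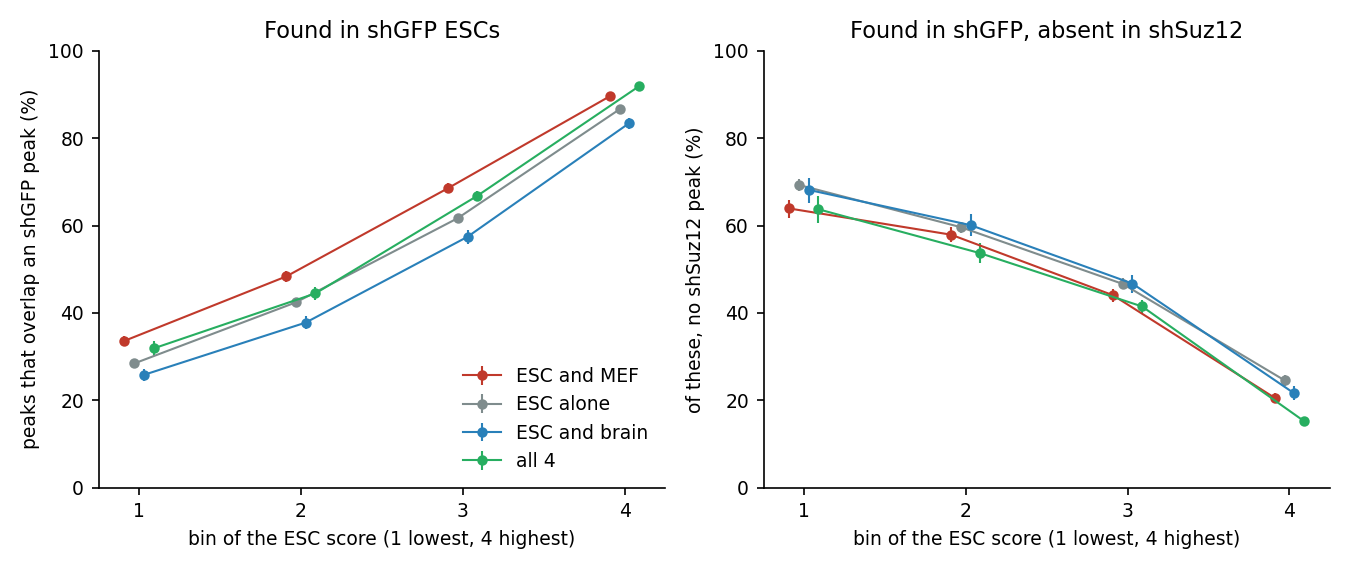
Share of ESC peaks that overlap an shGFP peak (left) and, of these, the share without an shSuz12 peak (right), in percent, by bin of the ESC score, with exact 95% intervals that cover counting error. The ESC-MEF peaks (red) rise from 33.6 to 89.6% on the left and go from 63.9 to 20.6% on the right.

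At least 1 ESC-MEF peak midpoint lay in 4759 of 22367 protein-coding genes (21.3%). Of these genes 2649 held just 1, 515 held at least 5, 132 at least 10 and 21 at least 20. In all, 11002 ESC-MEF peaks (46.0%) lay in gene spans, 235 of them in more than 1, and they made up 10.3% of the ESC peaks in gene spans, the value against which the genes below can be read. Counts in genes grow with the length of the gene, and neighboring peaks of a gene come from the same library and are not replicates.

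Gm20388, a gene model on chromosome 8 (122434741 to 126869622) whose annotated span of 4435 kb contains 72 other genes, came first by number, with 173 ESC-MEF peaks among 1516 ESC peaks (11.4%), close to the share over all genes. Fgfr2, a receptor for fibroblast growth factors, is likewise annotated with a span of 3009 kb that contains 31 other genes, and held 43 of 382 (11.3%). Both therefore describe their regions of the chromosome more than single genes.

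Among genes with a span of their own, Wwox, an oxidoreductase gene that lies over a fragile site (chromosome 8, 116963555 to 117876608), held 257 ESC, 305 MEF, 186 brain and 97 liver peaks, and 54 of its ESC peaks (21.0%) were ESC-MEF peaks. Odz3, which encodes a teneurin, a large adhesion protein of neurons (chromosome 8, 49313036 to 49760044), held 147 ESC, 165 MEF, 97 brain and 23 liver peaks, with 48 ESC-MEF peaks (32.7%). Its paralog Odz4 held 28 of 85 (32.9%). In Dnahc8, the heavy chain of a dynein of cilia and sperm flagella (chromosome 17, 30761299 to 31012209), 43 of 104 ESC peaks (41.3%) were ESC-MEF peaks, beside 78 MEF, 18 brain and 17 liver peaks. All 3 genes also had peaks of every library, so that the ESC-MEF peaks lay among peaks of other classes.

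The rest of the 20 genes included several of adhesion and guidance. Slit3, a secreted ligand that guides axons and migrating cells through Robo receptors, held 36 ESC-MEF peaks of 96 (37.5%). The cadherin genes Cdh13 and Cdh23 held 24 of 148 (16.2%) and 22 of 92 (23.9%), and in Cdh13 the brain list had 173 peaks and the liver list 0. Tiam1, which activates the GTPase Rac, held 32 of 127 (25.2%), with 135 MEF, 90 brain and 1 liver peak. Slit3 had 181 MEF peaks against its 96 ESC peaks, where the whole lists hold 217025 MEF and 171865 ESC peaks.

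Regulators of transcription and signaling made up another part. Bnc2, a zinc finger gene of mesenchymal cells, held 23 of 42 (54.8%, 38.7 to 70.2%), beside 114 MEF peaks, 23 brain and 2 liver peaks. Bcl11a, a zinc finger repressor known for silencing fetal globin genes, held 21 of 31 (67.7%, 48.6 to 83.3%). Ror2, a receptor of Wnt5a, held 21 of 55 (38.2%), and Skap1, an adaptor of T cell receptor signaling, 24 of 57 (42.1%). Rbm20, a splicing regulator of heart muscle, held 22 of 59 (37.3%). The other genes of the 20 were Enox1 (28 of 103), Pdzd2 (22 of 87), Camta1 (22 of 161), Zmat4 (21 of 75) and Auts2 (21 of 90), whose shares ran from 13.7% in Camta1 to 28.0% in Zmat4. Every gene of the 20 had a share above 10.3%, as their choice by number favors. These counts depend on the score required of the MEF peak: with at least 80, Bcl11a kept 8, Skap1 7, Cdh13 7 and Zmat4 5.

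In the shGFP and shSuz12 libraries, these genes kept part of their ESC-MEF peaks. An shGFP peak overlapped, by at least 1 bp, 32 of the 43 in Dnahc8, 27 of 36 in Slit3 and 30 of 48 in Odz3, but 9 of 21 in Bcl11a and in Ror2. An shSuz12 peak was present at 24, 20, 26, 10 and 12 of them, respectively. Over all ESC peaks the shares were 56.4% in shGFP and 47.1% in shSuz12. The number of ESC-MEF peaks found was higher in shSuz12 than in shGFP in 6 of the 20 genes, Gm20388 (105 and 102), Wwox (30 and 27), Tiam1 (19 and 16), Odz4 (15 and 14), Bcl11a and Ror2.

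**Figure D4:**
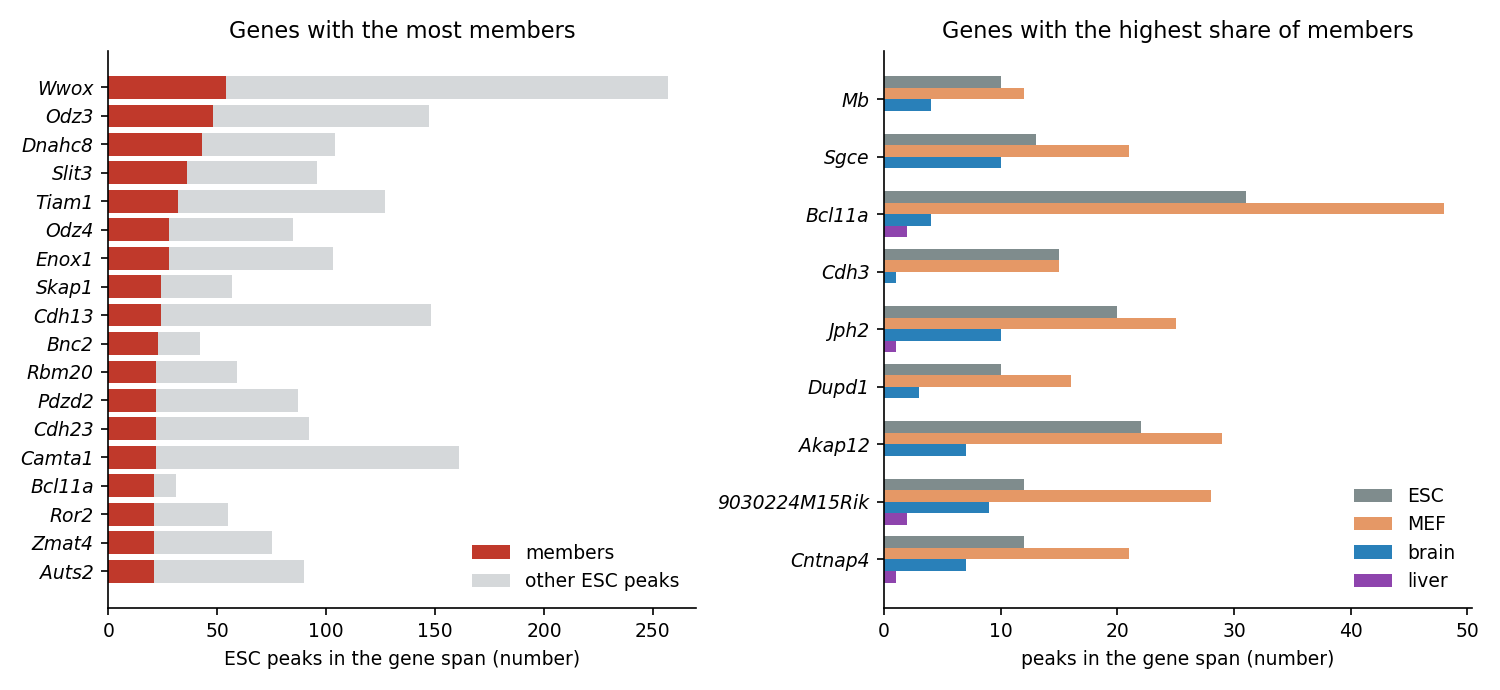
Left, number of ESC peaks by midpoint in the genes with the most ESC-MEF peaks (called members, red) and their other ESC peaks (gray), without Gm20388 and Fgfr2, whose spans contain 72 and 31 other genes. Right, number of ESC, MEF, brain and liver peaks in genes with the highest share of members; brain has between 1 peak in Cdh3 and 10 in Sgce and Jph2, and liver at most 2.

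When the share was taken in place of the number, Bcl11a was the one gene of the 20 that came among the first 10. Among the 3108 genes with at least 10 ESC peaks, the share of ESC-MEF peaks had a median of 7.69%. It was 0 in 981 genes and at least 50% in 33. Mb, the myoglobin gene of muscle, had 7 of 10 (70%, 34.8 to 93.3%). Sgce, an imprinted gene of the sarcoglycan family, had 9 of 13 (69.2%), Bcl11a the 21 of 31 given above, and Cdh3, which encodes P-cadherin, 10 of 15 (66.7%, 38.4 to 88.2%). The share was 12 of 20 in Jph2, a junctophilin of heart muscle, 6 of 10 in Dupd1, a phosphatase gene, 13 of 22 in Akap12, a scaffold of protein kinase A, and 7 of 12 in 9030224M15Rik and in Cntnap4, a neuronal adhesion gene of the neurexin family. Brain peaks were not missing from these genes, with 10 each in Sgce and Jph2 and 7 in Akap12 and Cntnap4, but liver peaks numbered 0 in Mb, Sgce, Cdh3, Dupd1 and Akap12. The counts are small and depend on the score required of the MEF peak. With at least 80, Jph2 kept 5, Sgce and 9030224M15Rik 4 each, Dupd1 3 and Cntnap4 2, while Akap12 kept 10, Cdh3 7 and Mb 5.

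Cdh3 (chromosome 8, 109034791 to 109080808) had 15 ESC, 15 MEF, 1 brain and no liver peaks, and 16 shGFP and 21 shSuz12 peaks. All 10 of its ESC-MEF peaks were found in shGFP and 6 in shSuz12, and together they covered 19176 bp of the 46.0 kb gene. When the overlap had to reach 50% of both peaks, just 2 of the 10 were left.

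By density, Gja1 led the genes with at least 5 ESC-MEF peaks. Gja1 encodes connexin 43, the gap junction protein of fibroblasts and many other cells (chromosome 10, 56097106 to 56110225). All 5 of its ESC peaks were ESC-MEF peaks (38.1 per 100 kb), beside 5 MEF peaks, 0 brain and 0 liver peaks, and 5 were counted with a MEF score of at least 80 and with no brain or liver peak within 1 kb, but 3 when the overlap had to reach 50% of both peaks and 2 in the 50% of ESC and MEF peaks with the highest scores. An shGFP peak overlapped 3 of the 5 and an shSuz12 peak 4. Gja1 was followed by Cdc6, a licensing factor of DNA replication, with 5 of 9 in 16.1 kb, and Ghrh, the growth hormone releasing hormone, with 5 of 9 in 18.0 kb, of which 0 were left with a MEF score of at least 80. Bcl11a, with 21.9 per 100 kb, and Cdh3, with 21.7, completed the list.

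**Figure D5:**
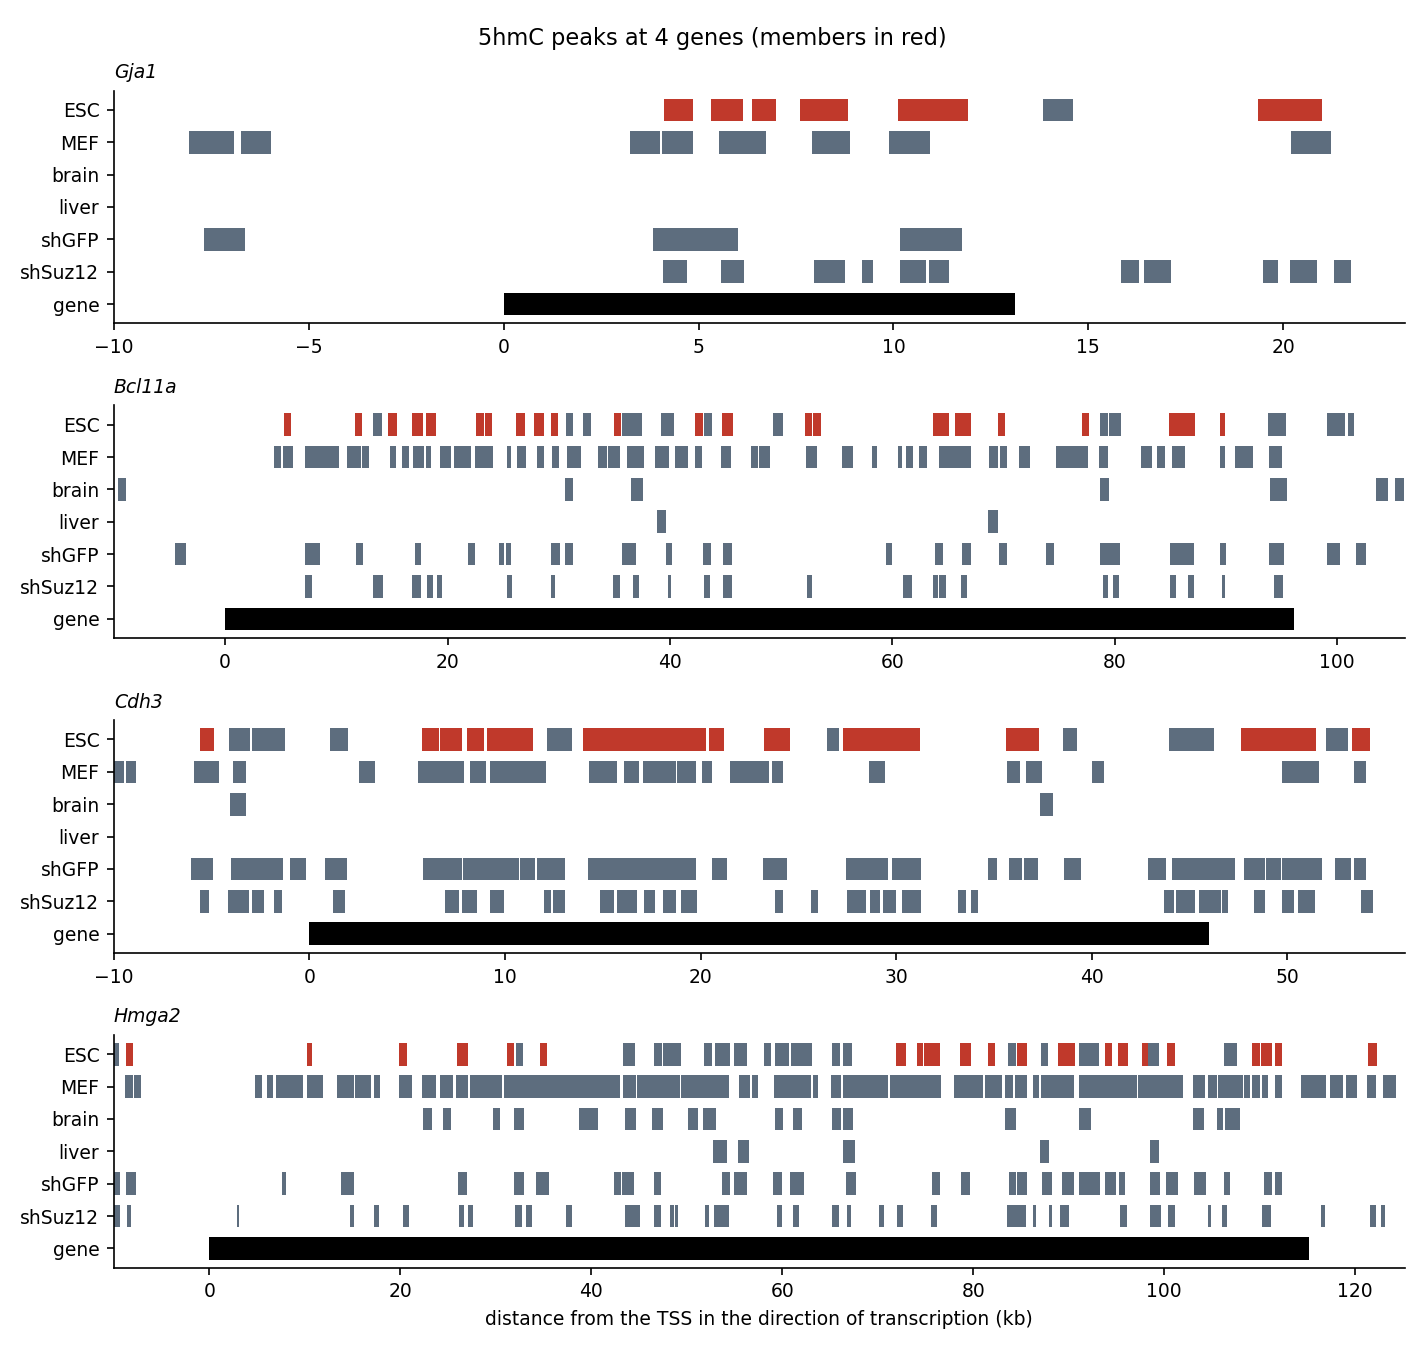
Peaks of the 6 libraries at Gja1, Bcl11a, Cdh3 and Hmga2, to scale, by distance from the TSS in kb in the direction of transcription, with ESC-MEF peaks (members) in red, all other peaks in gray and the gene span in black. Gja1 shows 5 red peaks within the gene and no brain or liver peak, whereas at Hmga2 brain and liver peaks lie between red peaks.

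The ESC-MEF peaks touched 1106 of 22367 protein-coding promoters (TSS ± 1 kb) by at least 1 bp, or 4.94%. In 265 they covered at least 1 kb, and in 11 the whole 2000 bp. The first 10 of these by symbol were Cd79a, a signaling chain of the B cell receptor, Cldn14, a claudin of tight junctions, Cpne6, a copine of neurons, the dynein gene Dnahc2, the dipeptidase gene Dpep1, the ectonucleotidase gene Entpd3, Hsf2bp, the cytokine gene Il17b, Lefty2, an antagonist of Nodal, and Lypd4. The peak over the promoter of Lefty2 and that of Dpep1 had its midpoint outside the gene span, so that no ESC-MEF midpoint was counted within either gene. Dnahc2 also had 16 of its 44 ESC peaks (36.4%) in the class, 12 of them found in shGFP and 12 in shSuz12.

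Lists of genes made by function, with earlier results of these data known, gave shares on both sides of the 10.3% over all protein-coding genes. An ESC-MEF peak was held by 21.3% of all protein-coding genes, whose median length was 15.4 kb. Median lengths of the lists ran from 7.92 kb (Sox, Gata, T-box and forkhead) to 441 kb (neuronal adhesion and synapse), with 44.7 kb for fibroblast and extracellular matrix genes. The part of length in the counts of genes was not tested. In the fibroblast and extracellular matrix list, 32 of 60 genes held an ESC-MEF peak, and 106 of their 528 ESC peaks (20.1%, 16.7 to 23.8%) were ESC-MEF peaks. Tcf4, a basic helix-loop-helix factor, held 16 of 72, Runx1, a factor of blood and mesenchymal cells, 9 of 27, and Fbn1 and Fbn2, the fibrillins of elastic microfibrils, 7 of 13 and 6 of 21. These genes had many MEF peaks, 142 in Tcf4, 85 in Runx1, 46 in Fbn1 and 70 in Fbn2, and brain peaks as well, from 33 in Fbn1 to 83 in Tcf4. The rule asks for a MEF peak, so a high share in genes rich in MEF peaks is not independent of it.

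The neuronal adhesion and synapse list, made of long genes with a median of 441 kb, had 39 of 64 genes with an ESC-MEF peak and a share of 17.0% (139 of 819, 14.5 to 19.7%), led by the postsynaptic scaffold Dlgap2 (19 of 86) and the sidekick adhesion gene Sdk2 (13 of 63). The Wnt list had 28 of 64 genes and 15.7% (102 of 650, 13.0 to 18.7%). Besides Ror2 it held Lgr5, a receptor for R-spondins and marker of intestinal stem cells, with 12 of 22 (54.5%), and Lef1 and Tcf7l1, transcription factors of the pathway, with 10 of 35 and 7 of 63. In Tcf7l1, 31 of the 63 ESC peaks were shared by all 4 cell types. The homeobox list, which left out the Hox clusters, had 29 of 117 genes and 14.2% (92 of 649), with the transcription factor genes Cux2 (12 of 80), Pax5 (10 of 39), and Cux1 and Lmx1b (8 each, of 37 and 25).

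Other lists lay close to the share over all genes. The pluripotency list had 8 of 35 genes and 12.0% (23 of 191, 7.79 to 17.5%), with the nuclear receptors Esrrb (6 of 44) and Nr5a2 (6 of 28), Tet1 (5 of 23) and Klf5 (2 of 5). Actin and focal adhesion genes had 31 of 62 genes and 10.2%, led by the integrin gene Itga9 (13 of 50). TGF-beta and BMP genes had 22 of 52 and 9.87%, with the ligands Bmp6 (5 of 14), Bmp7 (5 of 23) and Bmp8a (4 of 8). The FGF list had 14 of 37 and 10.4%, or 8.67% without Fgfr2.

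Lower shares were seen in the remaining 4 lists. Sox, Gata, T-box and forkhead genes had 19 of 83 genes and 6.89% (37 of 537, 4.90 to 9.37%). The list of Tet, Dnmt and demethylation genes had 8 of 24 and 7.82% (4.34 to 12.8%), of which Tet1 gave 5 of 14 ESC-MEF peaks, and Polycomb genes had 8 of 37 and 5.38% (14 of 260, 2.97 to 8.87%), led by Phc2 (4 of 28) and Kdm2b (3 of 44). Hepatocyte genes had 6 of 54 and 4.93% (7 of 142), with 2 in the transcription factor gene Hnf4a. The rule removes peaks shared with liver, and its part in the low hepatocyte count cannot be told apart from any other.

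The ESC-MEF peaks outside genes were also counted by the nearest TSS, where they made up 20.1% of the ESC peaks outside genes. Psmd7, a subunit of the proteasome, was nearest to 48 of them (of 102 ESC peaks outside genes) at a median distance of 239 kb. Tbx3, a T-box factor of limb and heart, was nearest to 47 of 105, at a median of 128 kb, and Med13l, of the Mediator complex and on the same chromosome, to 35 of 102. The kinase gene Vrk1 followed with 37 of 137 and the homeobox gene Zfhx3 with 33 of 76. Sulf2, which trims heparan sulfate, and Jarid2, a partner of Polycomb repressive complex 2, had 28 of 100 and 26 of 108. Rtl1, an imprinted gene of chromosome 12, had 26 of 50 (52.0%). These distances do not say which gene, if any, a peak acts on.

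Most ESC-MEF peaks had no other ESC-MEF peak in the same stretch between brain or liver midpoints. When peaks were joined into a run as long as no brain or liver midpoint lay between them, 14214 (59.4%) were the only one of their run, 188 runs had at least 5 (1113 peaks, 4.65%) and 9 runs at least 10. The runs end at peaks of lists that the rule used, and runs of other classes were not counted, so these numbers are a description. The run with the most, 16 within 116 kb of chromosome 11 (102457104 to 102572693), lay over the Wnt receptor gene Fzd2 and its neighbors Ccdc43 and Gm1564, with 27 ESC and 24 MEF peaks. Slit3 had a run of 13 within 35.3 kb, and Akap12, Bcl11a, Skap1 and Cdh3 runs of 10 within 44.7, 24.6, 33.3 and 31.5 kb. Other runs were 9 peaks at Tcfap2c, a trophoblast and germ cell factor, 9 in Bnc2 and 8 at Hmga2, a chromatin protein of embryonic growth. A pair of long runs had no protein-coding gene, 11 peaks in 208 kb near Tll1 and 11 in 41.1 kb near Psmd7.

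The 5 ESC-MEF peaks with the highest scores were all within genes. They lay in introns of Gm20388 (5326 bp, score 3123), Podnl1 (4315 bp), the calcium channel gene Cacna1a (4968 bp) and Cdh3 (6268 bp, the widest of all), each of these last 3 with a score of 3100, and over an exon of Miox, the enzyme that opens myo-inositol (3101 bp, 3085). All but the Miox peak are on chromosome 8. The MEF peaks that they overlapped had scores from 68.2 at Miox to 279 at Cacna1a, and scores of libraries with unknown depth cannot be compared in size. All 5 were present in shGFP, with scores from 685 to 1389, and in shSuz12, with scores from 117 to 270. The equal ESC scores of 3100 do not rank those 3 peaks, and the highest score of any ESC peak was 3233. Whether ESC scores of this size reach an upper limit of the scale was not tested, so the order of the 5 peaks is uncertain.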

How the data were processed

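GLIB-Seq libraries of ESCs, MEFs, brain, liver and shGFP and shSuz12 ESCs were used, 1 per condition. RNA-Seq libraries were not analysed here, and 1 gene that the rules below name is not reported here. The authors aligned uniquely mapping reads to mm9 (Bowtie 0.12.7; CASAVA 1.8 is also named), removed duplicates and ran MACS 1.4.1 on each library. Thresholds and controls are not given in the sources used here. Each deposited peak carries a score that MACS gave the authors, read here as a p-value on a negative log10 scale and multiplied by 10. No list holds read counts, and depth is unknown.

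Mitochondrial peaks were left out. Genes were the 22367 protein-coding genes of the GENCODE annotation of NCBIM37. A peak was assigned by midpoint, to promoters (TSS ± 1 kb) before exons before introns. Genes named were the 20 with the most ESC-MEF peaks, the 10 with the highest share among those with at least 10 ESC peaks, the 5 densest with at least 5, the 10 promoters with the most bp covered, and up to 4 genes per list. Genes nearest to peaks outside genes, runs and 2 of the sequences were chosen after their values were seen. The peaks and lists were chosen with earlier results of these data known. Alternatives changed the MEF overlap, the scores, the gap to brain and liver, the assignment, the promoters and the genes. The steps were tested on simulated peaks. Python 3.11.15 was used, with matplotlib 3.10.9, scipy 1.17.1, pandas 2.3.3 and numpy 2.4.6.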

Additional observations from a re-analysis of the deposited data

How the results depend on the processing

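Under the alternatives, 47 of 62 summary values moved by more than their counting interval or, for counts, by more than 1.5 times. No value changed sign, but the share outside genes went below 50% under a pair of alternatives, a minimum score of 80 for every list and all annotated genes. The cause was not tested beyond what each alternative changes by its construction. Of 192 values for single genes, 94 moved by more than 1.5 times.

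Values are given in the order share of ESC peaks, width, share found in shGFP, share of those without an shSuz12 peak, CpGs per 100 bp, share outside genes, promoter over body density and exon over intron density. When the overlap had to reach 50% of both peaks they were 9.93%, 818 bp, 57.4%, 44.0%, 1.75 and 53.5%, with the density ratios within their intervals. With MEF scores of at least 80, the 9879 peaks (364 in the named genes) gave 5.75%, 861 bp, 61.6%, 39.8%, 1.81, 53.7%, 1.41 and 1.69. A minimum score of 80 for every list gave 9.94%, 907 bp, 63.2%, 36.9%, 1.85, 49.8%, 1.20 and 1.72. In the 50% of ESC and of MEF peaks with the highest scores, 6800 peaks (278 in the named genes) gave 7.91%, 1129.5 bp, 79.1%, 31.0%, 1.88 and a promoter ratio of 1.79. Here the 7.91% is a share of the 50% of ESC peaks with the highest scores, and not of all ESC peaks. Without a brain or liver peak within 1 kb, 15661 peaks (431 in the named genes) gave 9.11%, 1.75 CpGs per 100 bp, 57.7% outside genes and ratios of 1.80 and 2.31.

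Assignment by 1 bp of overlap gave 51.8% outside genes and ratios of 2.40 and 4.09. Promoters of 2 kb on each side gave 51.6% outside genes, and all annotated genes 49.1% and a promoter ratio of 1.45. With at least 50% of the ESC peak covered, 52.9% were found in shGFP and 61.6% of these had no shSuz12 peak, values that were not counted for other classes. No paired analysis was possible because there was 1 library per condition, and no replicate could be left out. Without read counts, a missing peak may be a matter of depth or of the threshold of a list.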

Other observations

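Among the 1145 protein-coding genes with at least 3 ESC-MEF peaks, 16 annotated gene models, 2 of which overlap and share their peaks, had no brain and no liver peak midpoint anywhere in the span, a set picked after the values were seen. The brain and liver lists are those that the rule used, and genes with similar numbers of ESC peaks were not counted in the same way. The number of such genes is therefore a description. Besides Gja1 the set held a second connexin gene, Gja3, in which all 4 ESC peaks were ESC-MEF peaks. Dlk1, an imprinted gene of chromosome 12 that encodes a ligand related to those of Notch, had 4 of 6 ESC peaks in the class, beside 4 MEF peaks, and 1 of the 4 was found in shGFP and 3 in shSuz12. The BMP ligand gene Bmp8a had 4 of 8, the serotonin receptor gene Htr1d 4 of 5 with 9 MEF peaks, and Matn3, a matrilin of cartilage matrix, 3 of 4 with 6 MEF peaks. Chrng, the gamma subunit of the embryonic acetylcholine receptor of muscle, had 3 of 5 in a gene of 6.03 kb, and Tcfap2c all 3 of its ESC peaks, each of them found in shGFP. The genes named so far were picked from the set, and each had a share of at least 50%. Shares were lower in the overlapping models of Hoxa3 (4 of 16 in each), Ttll6 (3 of 11), Cdca2 (3 of 8), Ccdc155 and Chst5 (4 of 9 each). Alox12b and Gm15319 had 3 of 6 each. Over the whole set, spans ran from 6.03 kb in Chrng to 49.981 kb in Hoxa3, against a median of 15.4 kb over all protein-coding genes. The part of gene length in the absence of brain and liver peaks was not tested.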
